A study of Mus musculus with 6 samples.

Results

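COUP-TFII occupancy was examined at 10 mouse genes of the bone morphogenetic protein (BMP) family and its inhibitors. They were the 8 ligand genes Bmp2, Bmp4, Bmp5, Bmp6, Bmp7, Gdf6, Gdf10 and Inhba, and the 2 inhibitor genes Nog and Bambi. A peak was given to a gene when that gene had the protein-coding RefSeq gene body nearest to the peak's centre, within 100 kb, with a distance of 0 inside a gene. By this rule, 12 of 11175 peaks in the list from XX (female) embryos and 12 of 9846 peaks in the list from XY (male) embryos belonged to the 10 genes. The peaks came from chromatin immunoprecipitation and sequencing (ChIP-seq) with a rabbit antibody to COUP-TFII, the orphan nuclear receptor encoded by Nr2f2. The chromatin was from pooled mesonephroi of CD-1 mouse embryos at E14.5, with 2 samples from XX embryos, 2 samples from XY embryos and 2 samples of input pooled from both sexes. The labels name no treatment or genetic change. Each sex had 1 peak list over its 2 samples, every peak was 300 bp wide, and the lists gave positions in mm10 without a height or score. Depth was therefore unknown, no value has a spread between replicates, and differences between the lists are given as counts.

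BMPs are secreted ligands of the TGF-beta superfamily that bind paired type I and type II receptor kinases and act through Smad proteins. Secreted antagonists such as noggin bind the ligands outside the cell, and the membrane protein encoded by Bambi resembles a type I receptor without a kinase domain and dampens signalling. In the mouse urogenital tract, BMP ligands from the mesenchyme act on the neighbouring duct epithelium. COUP-TFII is itself abundant in mesenchyme, and in mouse uterine stroma it is known to act upstream of Bmp2. Several genes of this family, among them Bmp2, Bmp4, Bmp5 and Gdf6, are known for regulatory elements far from the gene in other mouse tissues.

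The table of RefSeq promoters (GRCm38.p6, the assembly of mm10) held Bmp4, Bmp5, Bmp6, Gdf10 and Inhba, 5 of the 10 genes, each with 250 bases before its start and 50 after. It held no entry for Bmp2, Bmp7, Gdf6, Nog and Bambi. For 3 of the 5, a peak centre lay within 1 kb of the start site. Their 250 bases before the start are shown because they place these peaks against the promoter: the Bmp6 stretch lies under a peak of the XY list, while the peaks at Gdf10 and Inhba begin after the start. All are read 5′ to 3′ on the plus strand, and capitals mark a match to AGGTCA or GGGTCA, the elements bound by COUP-TF receptors, on either strand. They cover chr13:38345466-38345715 (Bmp6), chr14:33923337-33923586 (Gdf10) and chr13:16011601-16011850 (Inhba).
Bmp6: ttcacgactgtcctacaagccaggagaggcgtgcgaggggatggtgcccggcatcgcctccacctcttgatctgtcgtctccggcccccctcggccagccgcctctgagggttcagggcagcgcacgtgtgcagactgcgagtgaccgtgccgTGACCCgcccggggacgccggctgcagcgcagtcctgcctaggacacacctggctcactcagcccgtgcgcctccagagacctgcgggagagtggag
Gdf10: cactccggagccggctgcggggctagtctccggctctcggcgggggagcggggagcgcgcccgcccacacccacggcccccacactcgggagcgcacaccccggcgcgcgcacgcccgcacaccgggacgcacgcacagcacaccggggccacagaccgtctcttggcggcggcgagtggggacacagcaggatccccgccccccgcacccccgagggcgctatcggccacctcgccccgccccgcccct
Inhba: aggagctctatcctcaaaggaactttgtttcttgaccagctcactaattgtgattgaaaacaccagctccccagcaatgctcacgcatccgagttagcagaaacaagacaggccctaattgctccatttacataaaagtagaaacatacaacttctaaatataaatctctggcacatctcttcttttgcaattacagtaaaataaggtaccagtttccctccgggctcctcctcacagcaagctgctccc

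All 10 genes had a peak in both lists. A peak in the XX list was found at 36.9% of the 21887 protein-coding genes, a peak in the XY list at 35.0%, and a peak in both at 29.8%. The 10 genes were chosen with earlier results of these lists known, so their full count is a description and is not read against these shares. Of these, 9 genes, all but Bmp4, had exactly 1 shared peak, meaning an XX and an XY peak with at least 1 bp in common. Of all protein-coding genes, 28.2% had a shared peak. The genes lay in wide stretches of genome: the stretch nearest to each gene within 100 kb had a median of 199 kb (115 to 227 kb), against a median of 45 kb over all protein-coding genes. Among the 3593 protein-coding genes with stretches in that range, 45.2% had an XX peak, 42.8% an XY peak and 33.7% a shared peak. Peak density over the stretches of the 10 genes was 0.643 per 100 kb in the XX list, against 0.415 over the genome, and 0.643 per 100 kb in the XY list, against 0.366 over the genome. The genome values also cover positions more than 100 kb from any gene. Because the 10 genes were chosen with results known and each had a peak, their density is likewise a description and not read against the genome.

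**Figure D1:**
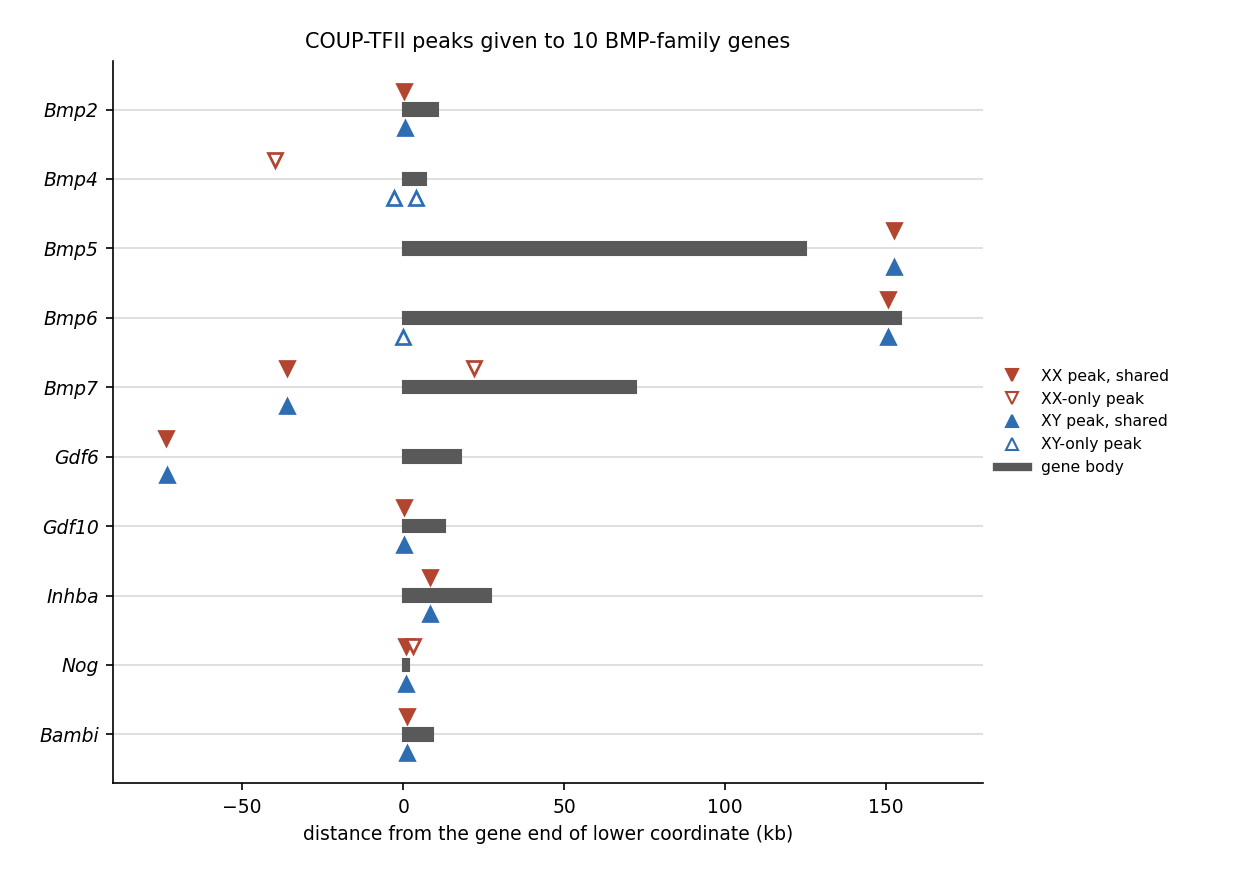
Peaks given to the 10 genes. The horizontal axis is the distance in kb from the gene end of lower coordinate, grey bars are gene bodies, triangles above a bar are XX peaks and triangles below it are XY peaks, filled where shared and open where found in 1 list only. The 9 shared pairs sit at or inside 6 genes and outside Bmp5, Bmp7 and Gdf6, while Bmp4 has open triangles only.

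Bmp2 and Bmp4 encode closely related ligands, and their peaks were arranged differently. At Bmp2 (gene 12156, chromosome 2, 133552159 to 133562896), the XX peak at 133552349 to 133552648 and the XY peak at 133552425 to 133552724 were shared. Their centres lay inside the gene, 339.5 bp (XX) and 415.5 bp (XY) from its end of lower coordinate. The gene table gives no strand for Bmp2, so whether that end is the start was not used. The next protein-coding gene, Fermt1, was 606 kb from the XX peak, and within 500 kb of Bmp2 the XX list had no other peak and the XY list had 1 other.

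Bmp4 (gene 12159, chromosome 14, 46383525 to 46390669, minus strand) had 1 XX peak and 2 XY peaks, and none was shared. The XX-only peak at 46343584 to 46343883 lay 39.8 kb downstream of the gene. An XY-only peak at 46380498 to 46380797 lay 2.88 kb downstream of it. The other XY-only peak, at 46387429 to 46387728, lay inside the gene, 3.09 kb after the start. The nearest peaks of the opposite lists were thus 36.9 kb apart, and the lists held different positions at this locus. Of the 6529 protein-coding genes with a peak in both lists, 6.14% likewise had no shared peak. Both XY-only peaks lay inside long noncoding RNA genes: the first inside Gm15217, with its centre 1123.5 bp after the annotated start, and the second at the start of Gm15222, 100.5 bp after it. The Bmp4 promoter window had no peak in either list.

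Bmp5, Bmp6 and Bmp7 form a subgroup of ligands, and Bmp7 is known in mice for its part in kidney and ureter development. None of their shared peaks lay within 1 kb of an end of the gene. At Bmp5 (gene 12160, chromosome 9, 75775365 to 75900316, plus strand), the shared peak covered 75927593 to 75927892 in the XX list and 75927526 to 75927825 in the XY list. It lay 27.4 kb past the downstream end of the gene and 152 kb from its start, and the next protein-coding gene, Hmgcll1, was 87.0 kb away.

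Bmp6 (gene 12161, chromosome 13, 38345716 to 38500314, plus strand) had a shared peak inside the gene and an XY-only peak at its start. The shared peak, 38496098 to 38496397 in the XX list and 38496079 to 38496378 in the XY list, lay 151 kb after the start. It was 4.07 kb (XX) and 4.09 kb (XY) from the downstream end of the gene and about as close to another gene, Txndc5, at 4.02 kb (XX) and 4.04 kb (XY). Txndc5 encodes a protein disulphide isomerase, and by distance to gene ends alone the shared peak went to it in both lists. The XY-only peak, 38345442 to 38345741, was centred 124.5 bp before the start and covered 276 of the 300 bases of the promoter window. The nearest XX peak was 49.1 kb away. It was the single promoter window among the 5 with a peak.

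The Bmp6 stretch printed above holds 1 match, TGACCC, which is GGGTCA read on the other strand. It lies at 38345619 to 38345624, ending 92 bp before the start, and its centre is 30 bp from the centre of the XY-only peak. The stretches of Gdf10 and Inhba hold neither element, and a direct repeat of AGGTCA with a spacer of 1 base (any of A, C, G or T) was in none of the 5 windows of 300 bases. Searched on both strands, GGGTCA was in 13.7% of all 32817 promoter windows (95% exact interval 13.3 to 14.1), AGGTCA in 16.3% and the direct repeat in 0.0396%. Of windows with at least 150 bases under an XY peak and none under an XX peak, as at Bmp6, 14.8% held GGGTCA (55 of 372, interval 11.3 to 18.8). The share was 28.0% (25.6 to 30.5) in windows with at least 150 bases under a peak of both lists. The interval for windows covered as at Bmp6 thus includes the share of all windows. A match is a description of these letters and not a site.

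Bmp7 (gene 12162, chromosome 2, 172868012 to 172940321) had a shared peak outside the gene and an XX-only peak inside it. The shared peak, 172831746 to 172832045 in the XX list and 172831813 to 172832112 in the XY list, lay 36.1 kb (XX) and 36.0 kb (XY) beyond the end of lower coordinate. The XX-only peak at 172889925 to 172890224 lay 22.1 kb inside the gene from the same end, and the nearest XY peak was 58.1 kb away. The noncoding gene Gm36254 lay 16.7 kb from the shared peak, nearer than Bmp7, so with genes of all kinds, as with a limit of 10 kb, Bmp7 kept its XX-only peak and had no shared or XY peak.

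Gdf6, Gdf10 and Inhba encode the more distant ligands: Gdf6 acts in joints and the skeleton, Gdf10 is also called Bmp3b, and Inhba encodes the subunit of activin A, needed in mice for coiling of the epididymal duct. At Gdf6 (gene 242316, chromosome 4, 9844372 to 9862345), the shared pair had the longest distance among the peaks of the 10 genes. The XX peak at 9770685 to 9770984 lay 73.5 kb from the gene and the XY peak at 9770872 to 9771171 lay 73.4 kb from it. Both lay inside the long noncoding RNA gene 4930412C18Rik, with centres 249.5 bp (XX) and 436.5 bp (XY) after its start. The peaks of this pair had 113 bp in common, and they no longer counted as shared when 50% of each peak had to overlap.

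Gdf10 (gene 14560, chromosome 14, 33923587 to 33936514, plus strand) had its shared peak just after the start. It covered 33923689 to 33923988 in the XX list and 33923675 to 33923974 in the XY list, with centres 251.5 bp (XX) and 237.5 bp (XY) after the start site. The noncoding gene Gm30031 starts in the opposite direction nearby, and the peak centres were 0.6605 kb (XX) and 0.6465 kb (XY) before that start. Gdf2, another BMP ligand gene, lay 17.2 kb from the peak and had no peak of its own in either list.

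Inhba (gene 16323, chromosome 13, 16004256 to 16031609, plus strand) had a shared peak at 16012470 to 16012769 in the XX list and 16012529 to 16012828 in the XY list. Measured to the ends of the gene record the peak was 8.36 kb (XX) and 8.42 kb (XY) inside the gene. The promoter table, however, puts the start at 16011851, inside that record, and from there the centres were 768.5 bp (XX) and 827.5 bp (XY) downstream. The peak also lay inside a transcribed pseudogene, B230303A05Rik, which overlaps Inhba.

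Both inhibitor genes had a shared peak inside the gene. At Nog (gene 18121, chromosome 11, 89300638 to 89302559), which encodes noggin, the shared peak covered 89301403 to 89301702 in the XX list and 89301505 to 89301804 in the XY list, in the middle of this gene of 1.92 kb. Their centres were 102 bp apart, and the pair was not shared when centres had to lie within 100 bp. An XX-only peak at 89303435 to 89303734 lay 1.03 kb beyond the end of higher coordinate, and the nearest XY peak was the shared one, 1.93 kb away. At Bambi (gene 68010, chromosome 18, 3507011 to 3516404), the XX peak at 3507921 to 3508220 and the XY peak at 3507914 to 3508213 were 1.06 kb (XX) and 1.05 kb (XY) inside the gene from its end of lower coordinate.

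Over the 10 genes, 15 places had a peak, of which 9 were in both lists, 3 in the XX list only and 3 in the XY list only. The XX-only peaks were at Bmp4, Bmp7 and Nog, and the XY-only peaks were 2 at Bmp4 and 1 at Bmp6. The other 6 genes had their single shared peak and nothing else. An XX-only peak was found at 3 of the 10 genes, against 13.2% of protein-coding genes, and an XY-only peak at 2, against 9.55%. More than 1 XX peak was found at Bmp7 and Nog (7.91% of protein-coding genes), and more than 1 XY peak at Bmp4 and Bmp6 (6.09%). These shares are over all protein-coding genes, most of which had no peak in a given list, while all 10 genes had one in each. Among the 8086 protein-coding genes with an XX peak, 2879 had an XX-only peak and 1732 more than 1 XX peak. Among the 7670 with an XY peak, 2091 had an XY-only peak and 1332 more than 1 XY peak. Shared peaks made up 75% of the 12 XX peaks (95% exact interval 42.8 to 94.5) and 75% of the 12 XY peaks (42.8 to 94.5). Over the whole lists, 67.0% of XX peaks and 76.0% of XY peaks were shared. Both shares of 75% rest on the same 9 pairs, and the intervals cover counting error only. The 10 genes were chosen with results known and each had a peak in both lists. Their shared share is therefore a description and is not read against the whole lists.

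The centres of the 9 shared pairs lay a median of 67 bp apart, against 33 bp over all 7483 shared pairs. The pairs at Bambi (7 bp), Gdf10 (14 bp) and Bmp6 (19 bp) were the closest. Inhba (59 bp), Bmp5 and Bmp7 (67 bp each), Bmp2 (76 bp) and Nog (102 bp) were in between. The pair at Gdf6 was 187 bp apart, and 96.2% of all shared pairs were at most as far apart.

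**Figure D2:**
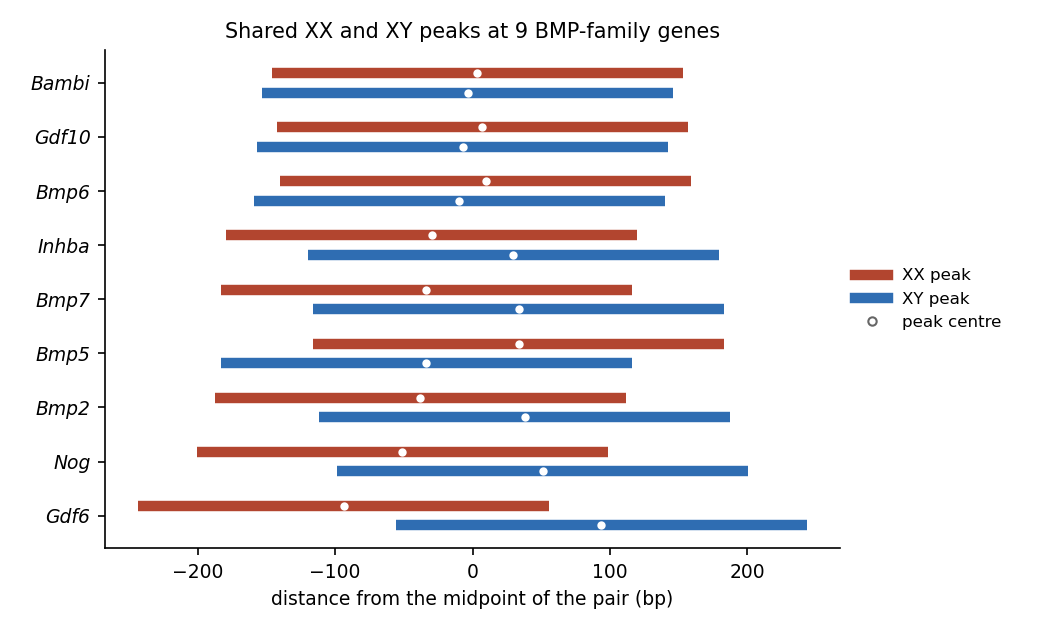
Shared pairs at the 9 genes that had one. Each bar is a peak of 300 bp, XX above XY, drawn by its distance in bp from the midpoint of the pair, with a white dot at its centre. Pairs run from the closest at the top (Bambi, 7 bp between centres) to the widest at the bottom (Gdf6, 187 bp).

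By place, 3 of the 12 XX peaks (25%, 5.49 to 57.2) and 4 of the 12 XY peaks (33.3%, 9.92 to 65.1) were centred within 1 kb of an end of their gene. Over the whole lists these shares were 52.1% of XX peaks and 59.6% of XY peaks. With a limit of 2.5 kb, the share was 41.7% of the 12 XX peaks, against 59.0% of all XX peaks, and 41.7% of the 12 XY peaks, against 66.7% of all XY peaks. The peaks within 1 kb of an end were those of Bmp2, Gdf10 and Nog in both lists, and that of Bmp6 in the XY list. Nog is 1.92 kb long, so any centre inside it is within 1 kb of an end. Ends are those of the gene record, so the Inhba peak, 768.5 bp (XX) and 827.5 bp (XY) after the start site, was not counted. Peaks elsewhere inside the gene were 4 of 12 in each list (33.3%, 9.92 to 65.1), against 24.5% of all XX peaks and 22.2% of all XY peaks. Peaks 10 to 100 kb outside the gene were 4 of 12 in the XX list (33.3%, 9.92 to 65.1), against 11.8% of all XX peaks. In the XY list such peaks were 3 of 12 (25%, 5.49 to 57.2), against 9.21% of all XY peaks. The peaks 10 to 100 kb outside belonged to Bmp5, Bmp7 and Gdf6 in both lists and to Bmp4 in the XX list. Outside the gene but within 10 kb lay 1 of 12 in each list, against 5.15% of all XX peaks and 4.31% of all XY peaks. The whole lists also hold peaks with no gene within 100 kb (6.49% of XX and 4.69% of XY peaks), which the rule keeps from the 10 genes. The stretches of the 10 genes were wide (median 199 kb, against 45 kb), and no shares were taken for peaks of genes with like stretches. No test was made of these differences.

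Seen over 500 kb on either side, the 10 genes had 62 XX peaks and 55 XY peaks around them, and 45 in each list were shared. Besides the 12 XX and 12 XY peaks given to the genes, 41 XX and 36 XY peaks were given to other genes, and 9 XX and 7 XY peaks had no protein-coding gene within 100 kb, as did 6.49% of all XX peaks and 4.69% of all XY peaks. For 7 of these 9 XX peaks and 4 of these 7 XY peaks, the nearest protein-coding gene was again one of the 10, at 100.2 to 294 kb in the XX list and 102 to 316 kb in the XY list. These gene-desert peaks stood at 8 places near 6 of the genes. Shared ones lay 139 kb from Bmp7, 115 kb from Gdf10 and 102 kb from Inhba. XX-only ones lay 294 kb from Bmp4, 179.5 kb from Gdf6, and 100.2 and 150.3 kb from Bambi, and an XY-only one lay 316 kb from Bmp4. The limit of 100 kb thus fell between the Gdf6 peaks, at 73.5 kb the farthest inside it, and the Bambi and Inhba peaks just beyond it.

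**Figure D3:**
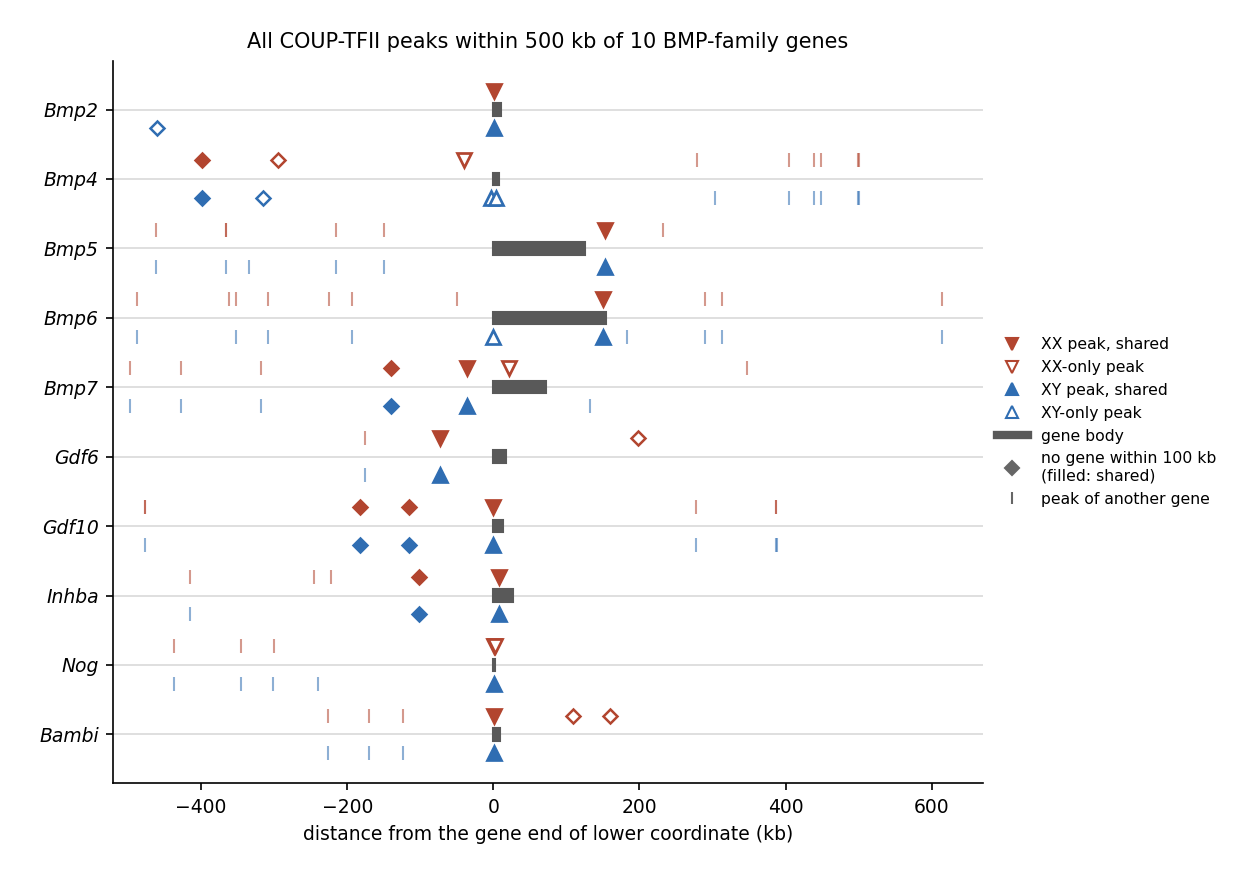
All peaks within 500 kb of the 10 genes. The horizontal axis is the distance in kb from the gene end of lower coordinate, XX peaks are above each gene and XY peaks below it, triangles belong to the named gene, diamonds have no protein-coding gene within 100 kb and ticks belong to other genes. Bmp2 stands nearly alone, with no other XX peak and 1 other XY peak, while Bmp6 has 11 XX and 10 XY peaks around it, most of other genes.

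The rest of the pathway was counted from lists of other ligands, antagonists and modulators, receptors, and Smads with their targets. Most other ligand genes had no peak: 21 of 25 had none in either list, 3 had an XX peak (Gdf15, Tgfb2 and Tgfb3) and 3 an XY peak (Bmp8b, Gdf15 and Tgfb2). Gdf15, a stress-induced ligand, and Tgfb2 had a shared peak, that of Tgfb2 lying inside the gene, 4.09 kb (XX) and 4.15 kb (XY) from an end. Tgfb3 had an XX-only peak 0.447 kb outside the gene.

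Antagonists and modulators other than Nog and Bambi likewise had few peaks, with none at 13 of 17. Chrd, Grem1 and Fst, genes of secreted proteins that bind BMPs or activins, were among the 13. Fstl1, a follistatin-like gene, had the only shared peak, centred 0.0615 kb (XX) and 0.0945 kb (XY) from a gene end. Twsg1 (twisted gastrulation), Bmper (a chordin-like BMP regulator) and Dand5 (a Nodal antagonist) each had 1 XY-only peak within 1 kb of a gene end. With the 10 genes put back, 11 of 33 ligand genes had an XX peak (33.3%) and 11 had an XY peak (33.3%), beside 36.9% and 35.0% of protein-coding genes. Likewise 3 of 19 antagonist and modulator genes had an XX peak (15.8%) and 6 had an XY peak (31.6%). Shared peaks were found at 9 of the 33 ligand genes (27.3%) and 3 of the 19 antagonist and modulator genes, beside 28.2% of protein-coding genes. Counted whole, the ligands were near the share of all genes. Antagonists and modulators were below that share in the XX list and for shared peaks (15.8% each). In both cases the 3 genes included Nog and Bambi, which were chosen with results known, as were the lists. These shares are not matched for the stretch of genome around the genes.

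Downstream of the ligands, 10 of 14 receptor genes had an XX peak, 8 had an XY peak and 6 had a shared peak. Of all protein-coding genes, 36.9% had an XX peak, 35.0% an XY peak and 28.2% a shared peak. Bmpr1a, a type I BMP receptor gene, led with 3 shared peaks, followed by Tgfbr3, the co-receptor betaglycan, with 2. Acvr1, Tgfbr1, Bmpr2 and Tgfbr2, genes of type I and type II receptors, had 1 each. Among 16 genes of Smads, Smurf ubiquitin ligases and the targets Id1 to Id4, Msx1 and Msx2, 13 had an XX peak, 11 had an XY peak and 9 had a shared peak. Smad7, which inhibits the receptors, had 3 shared peaks, Id1 and Id4 had 2 each, and Id2, Id3, Smad3, Smad4, Smad6 and Smurf2 had 1 each. The lists differ in the stretch of genome around their genes, with medians of 199 kb for the 10 genes, 21 kb for the other ligands, 65 kb for the other antagonists, 133.5 kb for receptors and 123 kb for Smads and targets. The median over all protein-coding genes was 45 kb, so the shares of the lists are not matched to those of all genes. The lists were chosen with earlier results of these data known, and no test of them was made.

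**Figure D4:**
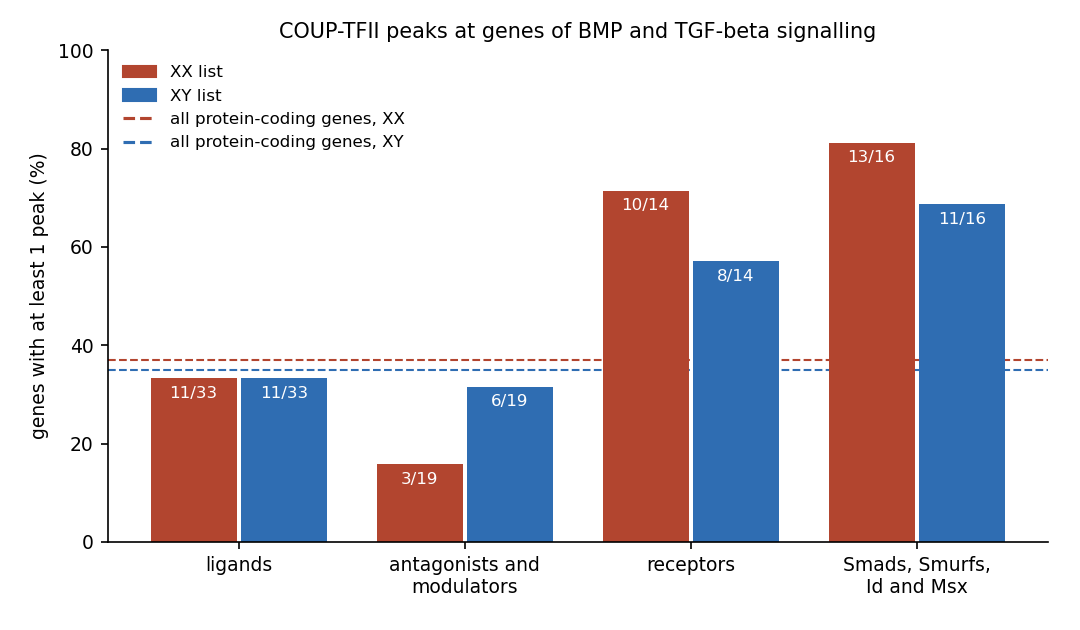
Share of genes with at least 1 peak, in percent, for 4 groups of the pathway, the 10 genes included among ligands (8) and antagonists (2). XX bars are left of XY bars, numbers in the bars are genes with a peak of all genes in the group, and dashed lines mark all protein-coding genes (36.9% XX, 35.0% XY). Ligands lie just under the lines at 11 of 33, and receptors and Smads lie above them. The lines are not matched for the stretch of genome around the genes, and the groups were chosen with earlier results of these data known.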

How the data were processed

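COUP-TFII ChIP-seq peaks were taken from the 2 deposited lists (XX and XY), grouped by the sample titles. The deposited files hold only the chromosome, start and end of each peak. No score accompanies them, so the unit of both columns is a position. Per the submitters' processing notes, the build was mm10, and HOMER 4.10.3, Bowtie 1.2, bedtools 2.24.0, Picard and cutadapt were among the tools. What each did, the threshold for peaks and the handling of replicates were not given in the sources used here. In the labels, the extraction protocol names RUNX1 and fetal ovaries, while titles, antibody, tissue and design name COUP-TFII and mesonephroi, and those were followed. Depth per sample is unknown.

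Positions were set against 21887 protein-coding genes of NCBI RefSeq (GRCm38.p6), whose table has no strand, exons or introns, so exonic and intronic peaks were not told apart. Strand and start came from the RefSeq promoter table. Ties went to the nearer gene end. The stretch nearest to a gene was measured every 1000 bp. Shares have exact (Clopper-Pearson) 95% intervals. No hypothesis test was run, since each sex has 1 list. The assignment and overlap steps were tested on simulated data. Python 3.11.15, pandas 2.3.3 and scipy 1.17.1 were used.

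The 10 genes and the pathway lists were chosen with earlier results of these data known. Genes were named by rule: the 10 genes, other ligands and antagonists with a peak, up to 4 receptors and Smads or targets with most shared peaks, with ties in that number all named, and other protein-coding genes within 10 kb of a peak of the 10 genes. Noncoding genes and neighbours farther away are named for their distance, and Gdf2, Chrd, Grem1 and Fst were chosen after their values were seen. At Nr2f2 itself, 1 peak was shared and 2 were XX-only.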

Additional observations from a re-analysis of the deposited data

How the results depend on the processing

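Other definitions of a shared peak gave 8 shared peaks at the 10 genes when 50% of each peak had to overlap, 7 when centres had to lie within 100 bp and 9 when peaks within 1 kb counted, against 9 as reported. Gdf6 lost its shared peak under both stricter rules, and Nog under the rule on centres. With genes up to 500 kb away, the XX peaks at the 10 genes numbered 19, against 12, while XY peaks numbered 16 and shared peaks 12. That longer reach adds gene-desert peaks by construction. With genes within 10 kb only, 7 of the 10 genes had an XX peak, 7 an XY peak and 6 a shared peak. Under that limit Bmp5 and Gdf6 had none, Bmp4 lost its XX peak, and Bmp7 lost its shared peak and with it its only XY peak. With genes of all kinds, Bmp4 and Gdf6 had no peak in either list, because noncoding genes lay nearer, Bmp7 again lost its shared and only XY peak, and 7 genes had a shared peak. By the nearest gene end, 9 genes had an XX peak, 10 an XY peak and 8 a shared one. By the nearest start site these counts were 8, 9 and 7. Bmp2, Bmp7, Gdf6, Nog and Bambi had no RefSeq promoter entry but were still counted. For these genes the counts do not rest on a start site from that source. A limit of 2.5 kb put 41.7% of XX peaks near a gene end, against 25% as reported, and 41.7% of XY peaks, against 33.3%. No paired analysis was possible because the replicates of a sex share 1 list, and for the same reason no replicate could be left out. The lists carry no signal, so a peak missing from 1 list may lie below the threshold used there, and depth was not available to tell.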

Other observations

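Peaks of other genes around the 10 genes were also looked through, and the examples here were chosen after their positions were seen. Gli3, a hedgehog effector gene, is the next protein-coding gene beside Inhba, and its 3 XX peaks within 500 kb of Inhba included the shared one 416 kb away, which was its only XY peak there. Tfap2c, the gene of transcription factor AP-2 gamma, had a shared peak 317 kb from Bmp7. Dsp, the gene of desmoplakin, had a shared peak 194 kb from Bmp6. Whether any of these peaks bears on the BMP-family gene or on its neighbour was not tested.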
